A study of Mus musculus with 2 samples.

Results

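The 10 mouse genes described here are the genes of the urea cycle and of hepatic glutamine and ornithine metabolism: Nags, Cps1, Otc, Slc25a15, Ass1, Asl, Arg1, Gls2, Glul and Oat. They were listed by function, and their peaks were those of the optimal list, defined below, whose summit (the position of highest signal) fell inside the annotated gene or at most 10 kb from it. This rule found 22 peaks of the 24050 in that list, and 10 of 21938 protein-coding genes are members. Binding of the transcription factor GATA4 had been mapped by chromatin immunoprecipitation and sequencing (ChIP-seq), in which DNA fragments bound by a protein are enriched with an antibody and sequenced. The material was whole liver from healthy adult mice with no treatment or genetic change named in the labels, and the age is unknown per the labels. There was 1 group with 2 samples, labelled biological replicates 1 and 2, which carried the same biosample and donor identifiers, so their differences may be technical. With no second group there was no contrast to test, and members were chosen with results of these data known. The values below are therefore descriptions, set beside the same value over all genes or all peaks.

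The authors' optimal list was made from both replicates, and each peak passed a limit on the irreproducible discovery rate (IDR), which measures how well ranks agree between lists. Replicate 1's own list past that limit held 4287 peaks and replicate 2's held 26314. The stricter conservative list of the same run as the optimal one held 9251. Peaks were ranked by the authors' signal score, which has no stated unit and was compared within 1 list only. A relaxed list of 300000 peaks and background regions per replicate gave the score of a locus in each sample where it had an entry. Replicate 1's relaxed list had an entry for 14 of the 22 peaks and replicate 2's for all 22, against 72.1% and 99.9% of all peaks. Passing the limit of the optimal list thus did not require an entry in both replicates. The highest relaxed score was 104 in replicate 1 and 294 in replicate 2. Scores given below for both replicates are therefore not to be read as fold differences in binding. Read depth is not in these lists and is unknown. The hepatocyte loci Alb, Hnf4a and Ahsg and the endothelial loci Gpr182, Stab2 and Tek had 3 to 8 peaks each in the optimal list. Over all protein-coding genes the median was 0, and 47.2% had a peak. Replicate 1's own list had no summit near Hnf4a. These peaks show binding near the genes but not their expression. The loci were chosen with results of these data known, so they are no independent check of the tissue.

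The urea cycle turns ammonia, which is toxic, into urea, and in mammals the complete cycle runs in hepatocytes. Its first steps take place in mitochondria and its later steps in the cytosol. Periportal hepatocytes hold the cycle and the glutaminase that feeds it, whereas hepatocytes around the central vein capture the remaining ammonia as glutamine. GATA4 is a zinc-finger protein that binds AGATAA and related words, and in adult liver it is known for its role in the sinusoidal endothelium. In whole liver a peak cannot be assigned to a cell type, and a peak near a gene does not show that it acts on that gene.

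The following 9 windows are the reference sequence around summits that the results turn on, read on the plus strand of mm10, 5′ to 3′, from 50 bp before to 50 bp after the summit. The Otc window ends at the base before the annotated start of the gene. Capitals mark what are called GATA words below, on either strand. These are AGATAA itself, its variant ending in G, which is AGATAG, the variant beginning with T, which is TGATAA, and the variant with both, which is TGATAG. The first 7 windows hold 1 or 2 such words, and the windows of Asl and Glul, shown for contrast, hold none.
Slc25a15 intron peak, chr8:22394621-22394721: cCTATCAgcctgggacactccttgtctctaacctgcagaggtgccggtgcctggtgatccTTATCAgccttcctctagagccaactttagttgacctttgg
Slc25a15 upstream peak, chr8:22400820-22400920: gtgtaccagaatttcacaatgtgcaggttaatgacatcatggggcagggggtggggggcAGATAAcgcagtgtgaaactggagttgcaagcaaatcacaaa
Ass1 first upstream peak, chr2:31461098-31461198: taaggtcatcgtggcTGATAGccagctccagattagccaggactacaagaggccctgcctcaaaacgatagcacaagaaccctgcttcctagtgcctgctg
Ass1 second upstream peak, chr2:31463349-31463449: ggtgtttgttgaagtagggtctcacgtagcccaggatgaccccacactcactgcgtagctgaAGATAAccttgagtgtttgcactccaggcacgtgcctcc
Otc promoter peak, chrX:10252242-10252304: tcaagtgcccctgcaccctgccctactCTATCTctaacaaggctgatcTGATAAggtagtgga
Nags promoter peak, chr11:102146255-102146355: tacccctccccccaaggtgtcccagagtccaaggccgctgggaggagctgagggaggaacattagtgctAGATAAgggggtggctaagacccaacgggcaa
Cps1 intron peak, chr1:67166045-67166145: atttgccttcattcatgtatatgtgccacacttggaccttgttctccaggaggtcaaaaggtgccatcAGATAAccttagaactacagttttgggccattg
Asl intron peak, chr5:130027211-130027311: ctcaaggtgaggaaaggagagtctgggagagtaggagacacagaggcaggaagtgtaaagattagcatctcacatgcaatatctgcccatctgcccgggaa
Glul intron peak, chr1:153901598-153901698: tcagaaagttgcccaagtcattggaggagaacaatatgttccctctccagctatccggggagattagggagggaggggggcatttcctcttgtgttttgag

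Each of the 10 genes had at least 1 peak. Over all protein-coding genes, 47.2% had one. Ass1 had the most, with 5, Asl had 4, and Cps1, Arg1 and Glul had 1 each, so that the median was 2 peaks a gene. Cps1 spans 108 kb, the longest span of the list, and had 1 peak. Nags spans 3.97 kb and had 2, of which 1 lay at the start site of its neighbour Tmem101. Whether the number follows the length of the gene was not tested. The peaks were spread over the whole range of strength, from rank 420 to rank 23257, with a median rank of 8265 against 12025.5 for all peaks. Of the 22, 3 lay in the strongest 10% of the list and 12 ranked above its median. The strongest peak near a gene had a median rank of 5060 over the 10 members and of 8666 over the protein-coding genes with a peak.

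**Figure D1:**
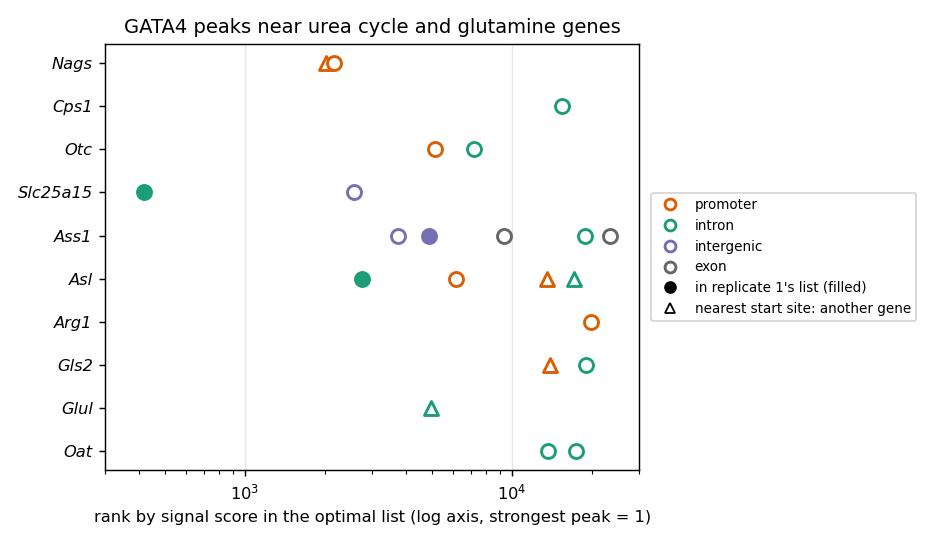
Rank by signal score in the optimal list (log axis, 1 is the strongest peak) of the 22 peaks, 1 row per gene. Colours give the class of the summit, filled symbols are peaks also in replicate 1's own list, and triangles are peaks whose nearest start site belongs to another gene. Slc25a15 holds the strongest peak, at rank 420, and 3 symbols are filled.

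By position, 7 summits were at most 1 kb from a transcription start site (called promoter here), 10 in introns, 3 between genes and 2 in exons. The promoter share was 31.8% (exact 95% interval 13.9 to 54.9%, counting error over peaks only), against 21.6% of all peaks. Introns held 45.5% of the member peaks and 40.4% of all peaks, intergenic sequence 13.6% and 35.7%, and exons 9.09% and 2.33%. The intron peaks upstream of Asl and downstream of Oat lay outside these members, in introns of the neighbours Crcp and Fgfr2. The 2 exon peaks overlap each other upstream of Ass1, in an exon of its neighbour Hmcn2, so the exon share rests on 1 locus. Of the 7 promoter peaks, 3 lay at the start site of a neighbour and not of a member. These neighbours were Tmem101 beside Nags, Gusb beside Asl and Spryd4 beside Gls2, at 24, 67 and 70 bp. Thus 4 of the 10 members, Nags, Otc, Asl and Arg1, had a summit this close to a start site of their own, against 22.4% of all genes. Of the 22 peaks, 17 were nearer to a start site of the member than to that of another gene, and 15 also had another protein-coding gene within 10 kb.

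**Figure D2:**
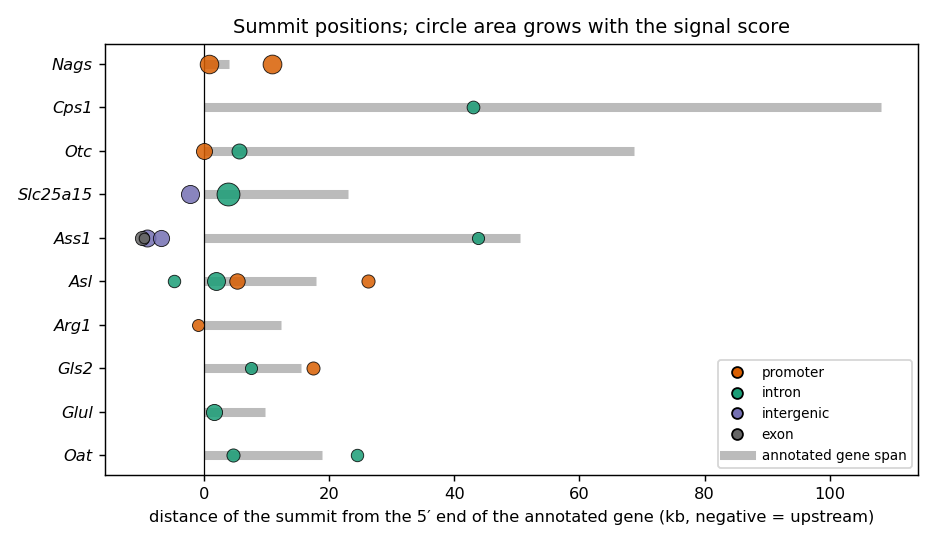
Position of each summit relative to the 5′ end of the annotated gene (kb, negative is upstream), with the gene as a grey bar and circle area growing with the signal score. The strongest summits of Otc, Slc25a15, Asl and Glul lie near the 5′ end, those of Ass1 sit mainly 6808 to 9813 bp upstream, and the peak of Cps1 lies 43069 bp into the gene.

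Nags makes N-acetylglutamate, the activator without which the cycle's first enzyme does not work. The gene lies on chromosome 11 at 102145513 to 102149477 (mm10, plus strand). Its own peak, at 102146209 to 102146415 in intron 1, had its summit 756 bp after the start site, a signal score of 85.9 and rank 2164, with 1 GATA word (AGATAA). In the relaxed lists the entry overlapping this peak had a score of 4.47 and rank 268679 in replicate 1, and 82.0 and rank 1177 in replicate 2. The replicate 1 entry was thus near the end of its list and the replicate 2 entry near the top. The summit of the replicate 1 entry lay 123 bp from that of the peak, so it may not mark the same site. The peak of rank 2018 that also fell within 10 kb of Nags, at 102156303 to 102156467, lay at the start site of Tmem101, held no GATA word, and had relaxed scores of 15.6 in replicate 1 and 72.1 in replicate 2.

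Cps1 encodes carbamoyl phosphate synthetase, the mitochondrial enzyme that takes up ammonia, and lies on chromosome 1 at 67123026 to 67231259 on the plus strand. Its single peak, at 67165915 to 67166274 in intron 14, had a score of 30.1 and rank 15428. The window held AGATAA and, on the same strand, the nuclear receptor word AGGTCA. Its relaxed scores were 5.67 in replicate 1 (rank 135258) and 24.0 in replicate 2 (rank 16354), and it was in neither replicate 1's list nor the conservative one. The strongest summit from 10 to 100 kb of each gene was looked up after the values were seen. This band covers more sequence than the gene with its 10 kb flanks. The same count over all genes was not made, so whether the members stand out is unknown. For 9 of the 10 members, all but Slc25a15, the strongest summit there ranked above the best counted peak. For 3 of the 9, Cps1, Otc and Arg1, the member was the nearest start site. For Cps1 it was at 67103973 to 67104166, 18955 bp upstream and with Cps1 as the nearest start site, in a peak of rank 765 and score 120. That peak was in both replicates' lists, held no GATA word within 50 bp, and does not count among the 22.

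Otc encodes ornithine transcarbamylase, which joins ornithine and carbamoyl phosphate to citrulline, and lies on chromosome X at 10252305 to 10321024 on the plus strand. The summit of its promoter peak, at 10252112 to 10252471, lay 13 bp before the annotated start. The peak had a score of 58.9 and rank 5141, and its window held 2 GATA words, of which TGATAA covers the summit. Replicate 2's relaxed list gave it a score of 53.2 and rank 3795, whereas replicate 1's relaxed list had no entry there. The second peak, at 10257795 to 10258154 in intron 1, had rank 7185, no GATA word, 2 copies of the ETS words given below and 1 FOX word. It had relaxed scores of 12.3 in replicate 1 and 34.5 in replicate 2 and was in the conservative list, although its promoter neighbour was not. The strongest summit outside the limit, 17463 bp upstream at rank 4575, was in both replicates' lists and held no GATA word.

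Slc25a15 encodes the carrier that exchanges ornithine and citrulline across the inner mitochondrial membrane, and lies on chromosome 8 at 22375551 to 22398597 on the minus strand. It held the strongest peak of the 10 genes, at 22394558 to 22394805 in intron 2, 3926 bp from the start site, with a score of 141 and rank 420. The relaxed score was 28.4 in replicate 1 (rank 1025) and 106 in replicate 2 (rank 461), so both samples placed it near the top of their lists. It was also in both replicates' own lists and in both conservative lists. As the sequence shows, 1 GATA word lay close to the summit and a second at the edge of the window. The second peak, at 22400690 to 22401049, lay 2273 bp upstream with AGATAA near its summit, at rank 2553. Replicate 2 gave it a score of 75.0 (rank 1559), and replicate 1's relaxed list had no entry there.

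Ass1, argininosuccinate synthase, carries out the first cytosolic step, and lies on chromosome 2 at 31470207 to 31520672 on the plus strand. Of its 5 peaks, 4 lay 6808 to 9813 bp upstream, in or just past the last part of the neighbour Hmcn2, and 1 in intron 13. The peaks at 31460968 to 31461327 (rank 3732, score 68.6) and 31463219 to 31463578 (rank 4892, score 60.4) each held 1 GATA word, TGATAG in the first and AGATAA in the second. The relaxed score of the first was 12.6 in replicate 1 and 55.7 in replicate 2. That of the second was 23.6 in replicate 1, where it ranked 1710, and 34.3 in replicate 2, where it ranked 9139. The replicates thus placed these 2 sites in opposite order, and the second was in replicate 1's own list while the first was not. The peaks of rank 9345 and 23257 overlapped each other in an exon of Hmcn2, shared 1 entry in each relaxed list, and held no GATA word. The intronic peak, of rank 18770, had 3 copies of the ETS words, no GATA word and no entry in replicate 1's relaxed list.

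Asl encodes argininosuccinate lyase, which releases arginine and fumarate, and lies on chromosome 5 at 130011258 to 130029247 on the minus strand. Its strongest peak, at 130027252 to 130027352 in intron 1, lay 1986 bp from a start site, with a score of 78.5 and rank 2738. The relaxed score was 20.7 in replicate 1 (rank 2374) and 51.5 in replicate 2 (rank 4092), and the peak was in both replicates' lists. No GATA word lay in its window, which held 2 ETS words and 1 E-box. A promoter peak of rank 6188, 511 bp from a second start site of Asl, held AGATAA and had a score of 48.8 in replicate 2 and no entry in replicate 1's relaxed list. The remaining peaks, with 1 GATA word each, lay 67 bp from the start site of Gusb (rank 13565) and in an intron of Crcp (rank 17135). The Gusb peak was the 1 peak of the 22 in neither replicate's own list. Replicate 2's list held 1 further summit near a member that the optimal list lacked, 33 bp upstream of the Asl start, towards the neighbour Crcp, at rank 23340 of that list.

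Arg1 encodes arginase, the enzyme that cleaves arginine to urea and ornithine, and lies on chromosome 10 at 24915221 to 24927484 on the minus strand. Its single peak, at 24928164 to 24928523, had its summit 860 bp upstream of the start site, at a score of 24.0 and rank 19849. It was the weakest of the strongest peaks of the 10 genes. The window held 1 E-box and no GATA word. Replicate 2 gave it a relaxed score of 18.0 (rank 24915), and replicate 1's relaxed list had no entry there.

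Gls2 encodes the liver glutaminase, which releases ammonia from glutamine in periportal cells, and lies on chromosome 10 at 128194457 to 128210004 on the plus strand. Its intronic peak, at 128201760 to 128202119, had rank 18879, with relaxed scores of 4.35 in replicate 1 (rank 288718) and 19.9 in replicate 2 (rank 21575). The replicate 1 entry was near the end of its list, where the lowest score was 4.28. The stronger peak within 10 kb, of rank 13891, lay 70 bp from the start site of Spryd4. Neither window held any of the motifs searched, and neither peak was in replicate 1's list or the conservative one.

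Glul and Oat are the pericentral members. Glul encodes glutamine synthetase, which captures ammonia, and lies on chromosome 1 at 153899944 to 153909723 on the plus strand. Its single peak, at 153901617 to 153901741 in intron 1, lay 1704 bp from the Glul start site and 1440 bp from that of Teddm2. It had a score of 59.9 and rank 4979, with relaxed scores of 11.0 in replicate 1 (rank 10588) and 47.9 in replicate 2 (rank 4791), and was in the conservative list. The window held 1 ETS and 1 CEBP word. Oat encodes ornithine aminotransferase, which feeds ornithine carbon into glutamate, and lies on chromosome 7 at 132557478 to 132576398 on the minus strand, inside the annotated span of Fgfr2. Its peaks, in intron 1 (rank 13678) and 5544 bp past the gene (rank 17335), were in replicate 2's list and not in replicate 1's. The intron 1 peak had relaxed scores of 8.12 in replicate 1 and 24.0 in replicate 2. None of the 3 peaks of these 2 genes held a GATA word, against 10 of the 19 peaks of the 8 periportal genes. With 3 peaks the exact 95% interval of the pericentral share reaches 70.8%, so a difference was not detectable.

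The replicates differed in what they showed near these genes. Replicate 1's list had a summit near 3 of the 10 genes, Slc25a15, Ass1 and Asl, against 11.3% of all genes. Replicate 2's list had one near all 10, against 51.4% of all genes. The conservative lists of the earlier and the later run each had one near 6, against 21.7% and 23% of all genes. Those 6 were Nags, Otc, Slc25a15, Ass1, Asl and Glul, with the Nags summit at the Tmem101 start site. Of the 22 peaks, 3 overlapped a peak of replicate 1 (17% of all peaks), 21 one of replicate 2 (82.5%) and 9 one of the earlier conservative list (38.2%). The later conservative list also shared 9 (40.8%), and the later list of pooled reads 21 (83.2%). In both replicates' lists were 3 of the 22 (16.3% of all peaks), and in neither was 1 (16.7%).

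Promoter peaks and other peaks were set side by side in each replicate. In replicate 1's own list were 0 of the 7 promoter peaks and 3 of the 15 others, against 6.14% and 20.1% of all promoter and other peaks. In its relaxed list were 2 of 7 and 12 of 15, or 14 of the 22, against 47.3%, 78.9% and 72.1%. Entries count by overlap. Those for the own peak of Nags and the Ass1 peak of rank 9345 had summits 123 and 132 bp away. The entries for the own peak of Nags and the intronic peak of Gls2 were near the end of the list, at ranks 268679 and 288718. Replicate 2's own list had 6 of 7 and 15 of 15, against 83.6% and 82.2%. The earlier conservative list had 1 of 7 and 8 of 15, against 18.3% and 43.6%. In replicate 2's relaxed list were all 22, against 99.9% of all promoter peaks and 99.8% of all others. Both for the members and for all peaks the promoter share was thus lower in replicate 1's lists, and the difference was not tested. The Otc promoter peak and the upstream peak of Slc25a15 were exceptions by strength. Of the 9 member peaks in the strongest 25% of the optimal list they were the 2 with no entry in replicate 1's relaxed list, where 95.5% of all peaks of that strength had one. By class it was 84.7% of such promoter peaks and 97.3% of the others. The own peak of Nags, of rank 2164, was among the 7 counted as listed, but only through its entry 123 bp away near the end of that list. The window of the promoter peaks had a median GC content of 60.4% and that of the other 15 peaks one of 50.5%. By replicate 1's own list the median was 53.5% for the 3 peaks in it and also for the 19 not in it, and the windows of the Otc promoter peak and the upstream Slc25a15 peak had 50.5% and 48.5%. The part of base composition was not tested.

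**Figure D3:**
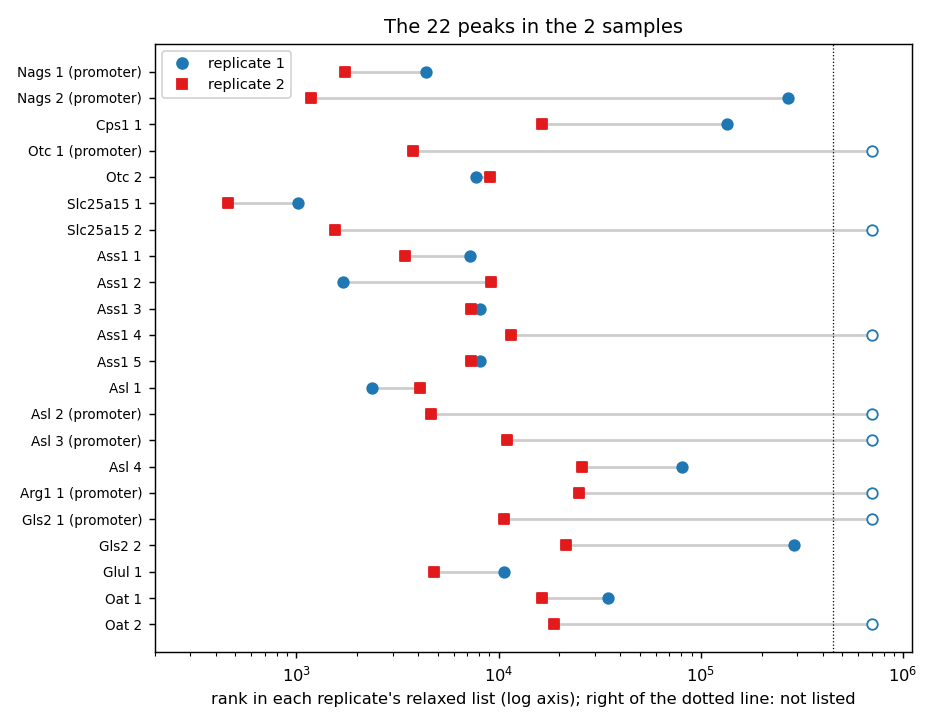
Rank of each of the 22 peaks in the relaxed list of replicate 1 (blue circles) and of replicate 2 (red squares), on a log axis where low ranks are strong. Open circles right of the dotted line have no entry in replicate 1's relaxed list. Of the 7 peaks marked promoter, 5 are open circles, against 3 of the 15 others.

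GATA words lay within 50 bp of 10 of the 22 summits (45.5%, exact 95% interval 24.4 to 67.8%), against 52.8% of all peaks. By class, 4 of 7 promoter summits held one, against 25.7% of all promoter peaks, and 6 of 15 other summits did, against 60.3%. These were 3 of 10 intron summits (61.3% of all intron peaks), 3 of 3 intergenic ones (59.4%) and 0 of 2 exon ones (55.6%). AGATAA was at 5 of the 22 summits, against 27.2% of all peaks. The promoter count includes the peak at the Gusb start site. Among the peaks of the members' own start sites, those of Otc, Asl and Nags held one and that of Arg1 did not. The centre of the nearest word lay 0.5 to 37.5 bp from the summit, with a median of 17.5 bp. The peaks at Otc and in intron 2 of Slc25a15 held 2 words, and 10.4% of all peaks held at least 2. Of the 3 peaks in replicate 1's list, those of Slc25a15 and Ass1 held a GATA word and that of Asl did not.

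Other motifs were searched on both strands in the same windows. The ETS words searched were AGGAAA, its variant ending in G, AGGAAG, and the forms starting with C, which are CGGAAA when ending in A and CGGAAG when ending in G. They were at 8 of the 22 summits, against 46% of all peaks, and the nuclear receptor word AGGTCA at 4, against 11.8%. The receptor words lay at Cps1, in intron 2 of Slc25a15 and at 2 upstream peaks of Ass1. The E-box CAGNTG was at 4 summits, against 22.1%, the FOX word TGTTTNC at 2, against 12.2%, and the CEBP word TTGCNNAA at 2, against 5.87%. The HNF4 word CAAAGTCCA or its variant with a second T, CAAAGTTCA, the SP word GGGCGG and the CRE word TGACGTCA were at none, against 0.973%, 9.33% and 0.466%. No word is part of another, though neighbouring words can share bases. With 22 windows an absent word has an exact 95% upper limit of 15.4%, so the absence of these words is uninformative. A word in the sequence does not show that a factor binds it.

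**Figure D4:**
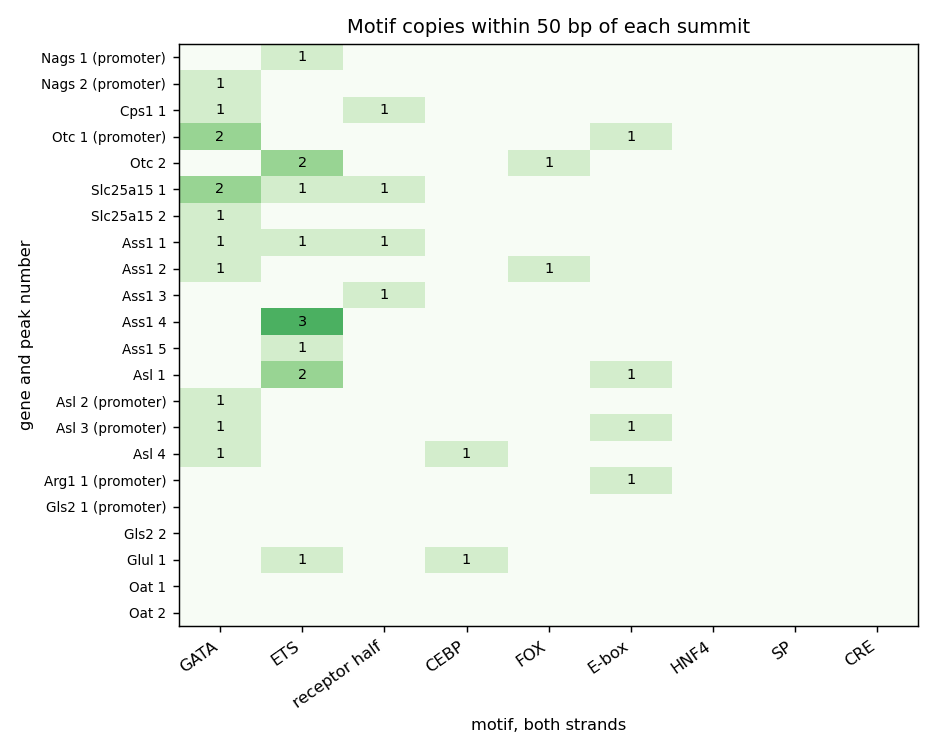
Number of copies of each motif within 50 bp of each of the 22 summits, both strands, 1 row per peak. GATA words are in 10 rows and ETS words in 8, while the rows of Gls2 and Oat are empty.

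Other genes of ammonia, glutamine, ornithine and arginine handling were listed for comparison. Of 20 such genes, 15 had a summit by the same rule, against 47.2% of all genes. Their median best rank was 4301, beside 5060 for the 10 members and 8666 for all genes with a peak. Replicate 1's list had a summit near 6 of the 20, against 11.3% of all genes. The first by rank was Got1, cytosolic aspartate aminotransferase, which interconverts aspartate and oxaloacetate, with a promoter peak of rank 48. It was followed by Got2, its mitochondrial counterpart (rank 674), Slc25a22, a glutamate carrier (rank 758), Slc1a2, a glutamate transporter (rank 1686), and Slc7a1, an arginine transporter (rank 1688). The optimal list had no peak near Arg2, the second arginase, Slc38a3, a glutamine transporter, Rhbg, an ammonia transporter, Odc1, which makes putrescine from ornithine, or Asns, asparagine synthetase. Near Slc38a3, replicate 2's own list and the later list of pooled reads had 1 peak each. In liver Rhbg, Slc38a3 and, among those with a peak, Slc1a2 are known as pericentral genes.

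Of 16 genes of amino acid catabolism 15 had a summit, and of 10 gluconeogenesis genes 8 did, against 47.2% of all genes. Their median best ranks were 4086 and 1971.5, against 8666 over all genes with a peak. GATA words were at 45.5% of the member peaks, 61.3% of the peaks of amino acid catabolism genes and 80.8% of those of gluconeogenesis genes. Over all peaks it was 52.8%. The promoter shares of these lists also differed, at 31.8%, 25.8% and 15.4%. GATA words were at 25.7% of all promoter peaks and 60.3% of all others. Of the member peaks 3 of 22 were in replicate 1's list, against 8 of 31 and 11 of 26, and 17% of all peaks. The 3 gene lists are short and their difference was not tested.

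The distance limit decided which peaks were counted. The farthest summit inside it lay 9813 bp from its gene, upstream of Ass1, and the nearest one outside lay 12556 bp from Otc, at rank 5718. The nearest one outside lay 52799 bp from Glul, at rank 552, and 52026 bp from Ass1, at rank 2169. Within 50 kb, Glul still had its 1 peak and Cps1 had 4. Near Arg1, the strongest summit from 10 to 100 kb lay 31726 bp upstream, with rank 5907 and 1 GATA word, and it was in replicate 2's list and the conservative one.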

How the data were processed

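GATA4 ChIP-seq of mouse whole liver was measured in 2 samples of 1 group. Peak lists on mm10 were deposited. According to the text files deposited beside the samples, the relaxed, optimal and 1 conservative list come from an earlier run and the replicates' own lists, the other conservative list and a pooled list from a later one. Aligner and peak caller: not given in the sources used here. Both the signal score and the IDR score of each peak are the authors' deposited values, and the lowest IDR scores of the thresholded lists, 537 and 540, correspond to an IDR of about 0.05. Scores were compared within 1 list only.

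Peaks on chromosomes 1 to 19, X and Y were kept and set against GENCODE mouse release M21 basic protein-coding genes (GRCm38, which is mm10). Summits at most 1 kb from any start site were classed as promoter, otherwise as exon, intron or intergenic. Intron numbers refer to the transcript of the longest span. The optimal peak's value in another list is that of the strongest peak sharing at least 1 base. Ca5a of the comparison list was matched to Car5a through RefSeq synonyms. Sequence came from RefSeq GRCm38.p6. Intervals are exact binomial and cover counting error over peaks, which share loci and are not replicates. The text names all 10 members and all their peaks, the first 5 comparison genes by rank and those with none. Members, lists and motifs were chosen with earlier results of these data known. The code for linking, overlap and motif search was tested on simulated data. Scripts ran in Python 3.11.15 with pandas 2.3.3 and pysam 0.24.0. Lists on mm9 were not used. Alternatives were other lists, an IDR of 0.01, other distances, windows, motif words, overlaps and scores.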

Additional observations from a re-analysis of the deposited data

How the results depend on the processing

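With each replicate's own list alone, the members with a summit ranged from 3 to 10, their peaks from 3 to 21, the comparison genes with a summit from 6 to 16 and the promoter peaks from 0 to 7. The low values are those of replicate 1's list, which is also the shorter. Either conservative list gave 6 members and 8 peaks. Summits within 5 kb of a start site gave 10 peaks, and those in the gene or within 50 kb gave 42. The 5 kb setting also drops the gene body, and 4 of the 12 peaks lost under it lie inside the gene. With 500 bp as the promoter limit 4 peaks were promoter peaks. AGATAA alone was at 22.7% of summits, being 1 of the 4 GATA words. The median rank of the member peaks, as a percentage of the list from the strongest, was 34.4% by signal score, 26.3% by the IDR score and 23.5% by the last score column. It was 33.1% over the 21 peaks of replicate 2's own list and 32.9% over the 3 of replicate 1's, which spread from 16.3 to 51.5%. Both other scores tie at their highest value for many peaks. The IDR score was at its cap of 1000 for 13 of the 22 member peaks and 52.5% of all peaks. The 26.3% is the average rank that all these tied peaks share, so it does not show a higher standing of the members. Of 44 alternative counts and shares 32 stayed within 1.5 times of the count, or within the interval of the share. For the share of summits with a GATA word that interval, 24.4 to 67.8%, is wide. Values from 37.5% (earlier conservative list) to 66.7% (the 3 peaks of replicate 1's list) fell within it, so it cannot show that the share is stable. The 4 alternative rank medians moved by more than the SD of the replicates' medians, the limit used for them. That SD comes from 2 values, 33.1 and 32.9%, which lie so close that almost any change exceeds it. Both values are also among the 4 judged. This limit therefore cannot decide whether the median rank is stable. No paired analysis was possible because there is 1 group.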
